A study of Mus musculus with 5 samples.

Results

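The loci of 4 enzymes that write, keep or remove DNA methylation were examined: Dnmt3a, Dnmt3b, Dnmt1 and Tet2. Their members were the CpGs inside 4 fixed windows of the mm9 build whose second count reached 10 or more in each of the 5 libraries. The second count, explained below, is taken to follow the number of reads of either kind at a CpG. It does not equal that number in every library, since the methylated count can exceed it. The windows were chr12:3800000-3920000 for Dnmt3a, chr2:153465000-153520000 for Dnmt3b, chr9:20705000-20765000 for Dnmt1 and chr3:133115000-133215000 for Tet2. They held 332, 130, 131 and 121 members in that order, 714 of the 1780536 autosomal CpGs that met the same minimum, and of the 1414 CpGs that any library listed in the windows.

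The data are reduced representation bisulfite sequencing, in which DNA is cut at CCGG by MspI and unmethylated cytosines are converted, so that CpG-rich fragments are read at single CpGs. There were 5 mouse libraries: 1 WT library (genotype given as wildtype), 2 K36M libraries (a dominant negative histone H3.3 at lysine 36) and 2 K9M libraries (a mutant H3.3, also dominant negative, at lysine 9). The K36M and K9M mice were induced with doxycycline at 2 mg/ml in the drinking water, and no treatment is given for WT, so induction and mutation cannot be told apart in a comparison with WT. The strain, age, transgene promoter and number of animals are not given in the sources used here. The cells are called HSCs in one label and sorted peripheral blood cells in another, and no marker transcript was measured against which to check them. Whether replicates came from different animals is not stated. The p-values therefore measure at most counting error and spread among these libraries, and that spread may be technical.

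DNMT3A and DNMT3B place methyl groups on unmethylated CpGs, DNMT1 copies the pattern to the new strand when DNA is replicated, and TET2 oxidises 5-methylcytosine, the first step of its removal. The PWWP domains of DNMT3A and DNMT3B are known to bind histone H3 methylated at lysine 36. In blood, loss of DNMT3A or TET2 is known to expand the stem cell pool. Dnmt3a is transcribed from an upstream start into a long form and from an internal start into a short form that lacks the N-terminal part. CpG-dense promoters are as a rule unmethylated in cells of all kinds, while CpGs in gene bodies are mostly methylated. Transcripts were not measured in these libraries.

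No mm9 gene annotation was used, so the starts were located from sequence. RefSeq promoter sequences (GRCm38.p6, 250 bases before to 50 after a start) were slid along the CpG positions listed in the files for the gene's chromosome. Of 8 such sequences for the 4 genes, 6 were placed where every listed CpG, and at least 10, fell on a CG of the sequence. The next best position matched far fewer CpGs, 5 to 9, or 37 of 61 listed for Tet2. At some of these positions every listed CpG matched as well. For the first Dnmt3a start 42 of 42 listed CpGs matched, for the internal Dnmt3a start 18 of 18, for Dnmt3b 21 of 21, for Dnmt1 27 of 27 and for Tet2 57 of 57, and each position lay in the gene's window. Another Dnmt1 start with 12 CGs and one with 2 CGs could not be placed. The bases before 4 of the starts are shown for their unmethylated CpGs. Only those of Dnmt3a lie in the same window as the Dnmt3a differences. The bases are written 5′ to 3′ along the gene, with capitals for each CG that was measured in all 5 libraries.
Dnmt3a, first start, chr12:3806730-3806979 (mm9, plus strand): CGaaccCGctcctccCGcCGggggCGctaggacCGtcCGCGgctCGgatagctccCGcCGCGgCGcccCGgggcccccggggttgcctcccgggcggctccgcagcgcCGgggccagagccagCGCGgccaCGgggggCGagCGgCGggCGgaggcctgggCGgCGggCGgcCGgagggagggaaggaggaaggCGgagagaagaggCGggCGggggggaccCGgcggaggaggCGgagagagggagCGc
Dnmt3a, internal start, chr12:3891494-3891743 (mm9, plus strand): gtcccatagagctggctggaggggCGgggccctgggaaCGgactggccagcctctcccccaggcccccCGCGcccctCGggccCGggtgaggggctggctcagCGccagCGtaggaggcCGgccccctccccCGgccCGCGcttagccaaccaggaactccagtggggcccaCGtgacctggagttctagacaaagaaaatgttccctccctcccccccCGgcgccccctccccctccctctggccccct
Dnmt3b, chr2:153474935-153475184 (mm9, plus strand): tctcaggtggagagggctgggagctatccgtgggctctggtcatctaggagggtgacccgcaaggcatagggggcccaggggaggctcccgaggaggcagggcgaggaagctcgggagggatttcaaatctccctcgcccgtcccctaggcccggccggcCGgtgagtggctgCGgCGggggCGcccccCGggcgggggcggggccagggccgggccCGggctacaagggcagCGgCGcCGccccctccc
Tet2, chr3:133207355-133207604 (mm9, minus strand): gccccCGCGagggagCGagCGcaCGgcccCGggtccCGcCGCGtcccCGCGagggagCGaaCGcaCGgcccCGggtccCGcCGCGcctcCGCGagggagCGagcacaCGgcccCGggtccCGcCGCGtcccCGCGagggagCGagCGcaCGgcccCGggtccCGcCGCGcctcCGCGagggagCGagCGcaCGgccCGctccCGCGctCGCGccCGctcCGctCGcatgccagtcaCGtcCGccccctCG
In these 250 bases, 32 of 38 CGs were measured before the first Dnmt3a start, 14 of 15 before the internal one, 9 of 21 for Dnmt3b and 51 of 51 for Tet2. The MspI site CCGG (the same letters on both strands) occurred 7, 4, 6 and 4 times, and 47.1% of 32851 RefSeq sequences of that length held it at least once.

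Levels are given as relative levels. In WT, both K36M libraries and K9M replicate 1, the deposited fraction stays far below 1 even in the most methylated tiles, and the total was read as a methylated count plus a second count that follows reads of either kind. In K9M replicate 2 the deposited total was read as the second count. The methylated count over the second count was scaled to each library's plateau, its median ratio in the 20% of tiles that ranked highest on average, so 100% means as methylated as the plateau, and values can pass 100%. That reading was inferred from the values, so the tests of the called tiles are also given without K9M replicate 2.

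Between 3356656 and 3534966 CpGs were listed per library, with deposited totals summing to 111738339 to 174743796. CpGs were summed in 1 kb tiles with at least 3 members, and 152678 autosomal tiles entered 1 quasi-binomial fit over all 5 libraries, whose dispersions were moderated with limma (the tile model). A tile was called at a Benjamini-Hochberg adjusted p under 0.05 and a difference of at least 10 points. The 4 windows held 72 tiles with a member, of which 48, with 682 CpGs, were tested: 20 in Dnmt3a, 6 in Dnmt3b, 15 in Dnmt1 and 7 in Tet2. The second count per CpG lay between 14.3 and 84.4 in these tiles over all libraries.

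The starts of all 4 genes were unmethylated in every library. Over the 6 placed promoters, each from 250 bases before to 50 after a start, the relative level lay between 0.159% and 0.714%, and no single CpG in them passed 9.53% in any library. The first Dnmt3a promoter, with 40 CpGs, stood at 0.516% in WT, 0.483% and 0.449% for K36M, and 0.458% and 0.313% for K9M. The internal Dnmt3a promoter, with 17 CpGs, stood at 0.585% in WT, 0.714% and 0.578% for K36M, and 0.286% and 0.180% for K9M. The 5 libraries thus lay within 1 point of each other at both Dnmt3a starts. The Tet2 promoter, with 57 CpGs, was at 0.159% in WT, 0.296% and 0.361% for K36M, and 0.327% and 0.292% for K9M. The Dnmt3b promoter was at 0.607% in WT, 0.446% and 0.295% for K36M, and 0.578% and 0.169% for K9M. At Dnmt1 the values were 0.189%, 0.533% and 0.372%, and 0.485% and 0.557% in the same order.

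Around the starts, 9 tested tiles with 481 CpGs were under 5% in all 5 libraries, with values from 0.105% to 4.62%, a range in which no tile can reach the 10 points of a call. The CpG-richest tile of each window was among them. It held 129 CpGs at Dnmt3a (chr12:3807001-3808000) and was at 0.360% in WT, 0.429% ± 0.0514 (SD, n = 2) in the K36M pair and 0.309% ± 0.0487 (SD, n = 2) in K9M. The 95-CpG tile of Dnmt3b (chr2:153475001-153476000) was at 0.426%, 0.456% ± 0.146 and 0.380% ± 0.0463 (SD, n = 2 each). The 28-CpG tile of Dnmt1 (chr9:20757001-20758000) was at 0.171%, 0.408% ± 0.101 and 0.591% ± 0.00805 (SD, n = 2 each), and the 89-CpG tile of Tet2 (chr3:133207001-133208000) at 0.198%, 0.340% ± 0.0132 and 0.308% ± 0.0436 (SD, n = 2 each).

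K36M was set against WT to ask whether methylation at these loci differs with the lysine 36 mutant, and both calls fell in Dnmt3a. Of 48 tested tiles 2 were called lower in K36M and 0 higher, against 0.476% of all tiles called lower and 0.0144% called higher. Both lay between the first and the internal Dnmt3a start, and both were also called lower in K36M than in K9M, where 1.22% of all tiles were called lower and 0.0701% higher. The 2 comparisons share the K36M libraries. In Dnmt3b, Dnmt1 and Tet2 no tile was called in either comparison, by this model or by edgeR's quasi-likelihood test. Over the 48 tiles 3 had an unadjusted p under 0.05 for K36M against WT and 6 for K36M against K9M. Beside the called tiles, the third against WT was at the edge of the first unmethylated stretch, chr12:3808001-3809000 with 27 CpGs. It was at 2.81% in WT, 0.875% and 1.38% for K36M, and 2.20% and 3.87% for K9M, with adjusted p = 0.577 by the tile model (limma).

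**Figure D1:**
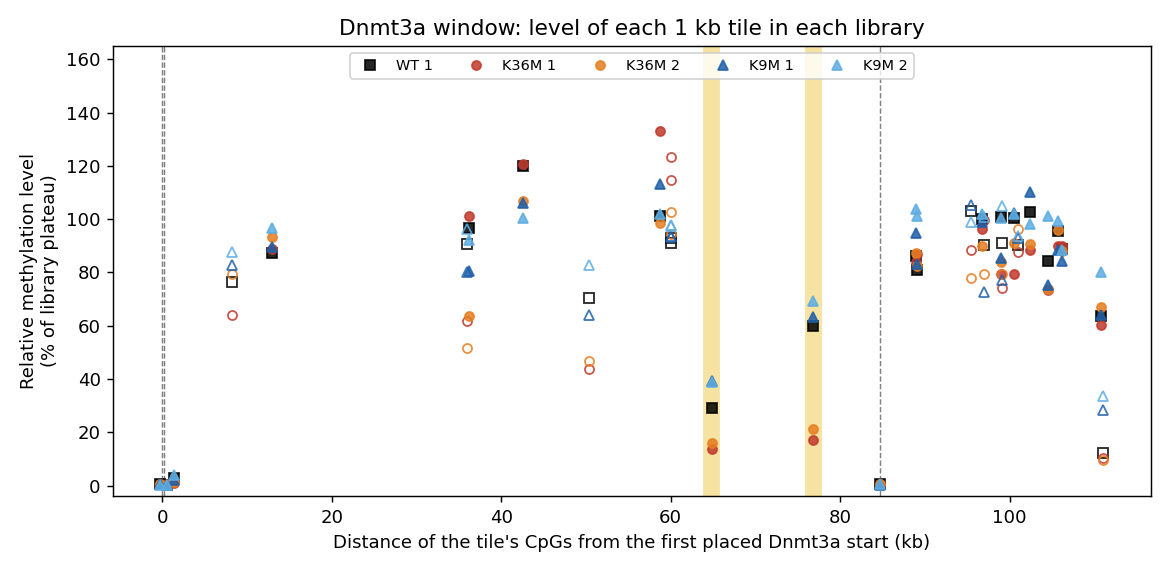
Relative level (percent of the library plateau) of each 1 kb tile in the Dnmt3a window against its distance from the first placed start in kb, for the 5 libraries. Filled symbols are tested tiles, open symbols tiles with fewer than 3 CpGs, dashed lines the 3 placed starts, and the shaded tiles, at 64.9 and 76.8 kb, are those called lower in K36M, where both K36M libraries lie below the other 3.

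The larger difference lay at chr12:3883001-3884000, with 5 CpGs within 154 bp, 7.94 kb before the internal start. The level was 59.9% in WT (95% Clopper-Pearson counting interval 45.9% to 77.9%), 17.3% and 21.4% in K36M replicates 1 and 2, and 63.3% and 69.1% in K9M replicates 1 and 2. Both K36M libraries were thus below this interval of WT, and the K9M libraries were inside it. The interval takes the counts of the 5 CpGs as independent, although CpGs of a fragment are read together, which by itself makes it too narrow. It also takes the methylated and second counts as exclusive, although the second count is read as following reads of either kind. Its true width was not tested. The difference from WT was -40.5 points in K36M (19.3% ± 2.93, SD, n = 2), at adjusted p = 0.0180 by the tile model (limma). The difference of K36M from K9M (66.2% ± 4.15, SD, n = 2) was -46.9 points at adjusted p = 0.00156 by the same model. As deposited, without any rescaling, the tile stood at 42.5% in WT, 17.4% and 21.2% for K36M and 46.5% in K9M replicate 1, libraries whose fractions share a scale.

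Each of the 5 CpGs was lower in both K36M libraries than in the other 3. At position 3883832, WT had 20 methylated against 32 second counts, a level of 50.6%. K36M replicate 1 had 3 against 43, a level of 5.74%, and K36M replicate 2 had 0 against 53, which allows a level of up to 4.50%. The K9M libraries were at 54.6% and 60.7% there. At 3883775 the levels were 44.4% in WT, 8.75% and 8.45% for K36M, and 44.3% and 58.9% for K9M. The first CpG, 3883724, was the most methylated of the tile in all 5 libraries, at 92.1% in WT, 72.8% and 75.2% for K36M, and 120% and 105% for K9M. A step down from it to the next CpG was present in every library, and it was largest in K9M replicate 1.

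The other called tile was chr12:3871001-3872000, with 8 CpGs within 162 bp, 19.9 kb before the internal start. It was at 29.2% in WT (95% Clopper-Pearson counting interval 24.4% to 34.8%), 13.6% and 16.0% for K36M, and 39.1% and 38.9% for K9M. The K36M libraries lay below this interval of WT and the K9M libraries above it. It takes the counts of the 8 CpGs as independent, although CpGs of a fragment are read together, which by itself makes it too narrow. The methylated and second counts are again taken as exclusive, and the true width of the interval was not tested. Whether K9M would lie outside a wider interval was not tested. The difference of K36M (14.8% ± 1.68, SD, n = 2) from WT was -14.4 points at adjusted p = 0.0357, and from K9M (39.0% ± 0.113, SD, n = 2) it was -24.2 points at adjusted p = 0.000571, both by the tile model (limma). K9M was 9.82 points above WT, at an unadjusted p of 0.0208 and an adjusted p of 1 by that model. As deposited, WT stood at 26.5%, K36M at 14.2% and 16.8% and K9M replicate 1 at 34.9%.

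All 8 CpGs of that tile were lower in both K36M libraries than in the other 3, although their levels differed widely. At 3871865 the level was 57.7% in WT, 38.5% and 41.9% for K36M, and 60.9% and 61.5% for K9M. At 3871824 WT was at 12.0%, K36M at 2.74% and 1.09% and K9M at 24.8% and 20.03%. In all 5 libraries 3871865 was the most methylated CpG, and the least methylated was 3871824 or 3871809. CpGs of a fragment are read together and do not count as separate evidence. Over all autosomal CpGs, 10.8% had both K36M libraries below the other 3, and over the 714 members 64 did, 45 of them in Dnmt3a.

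**Figure D2:**
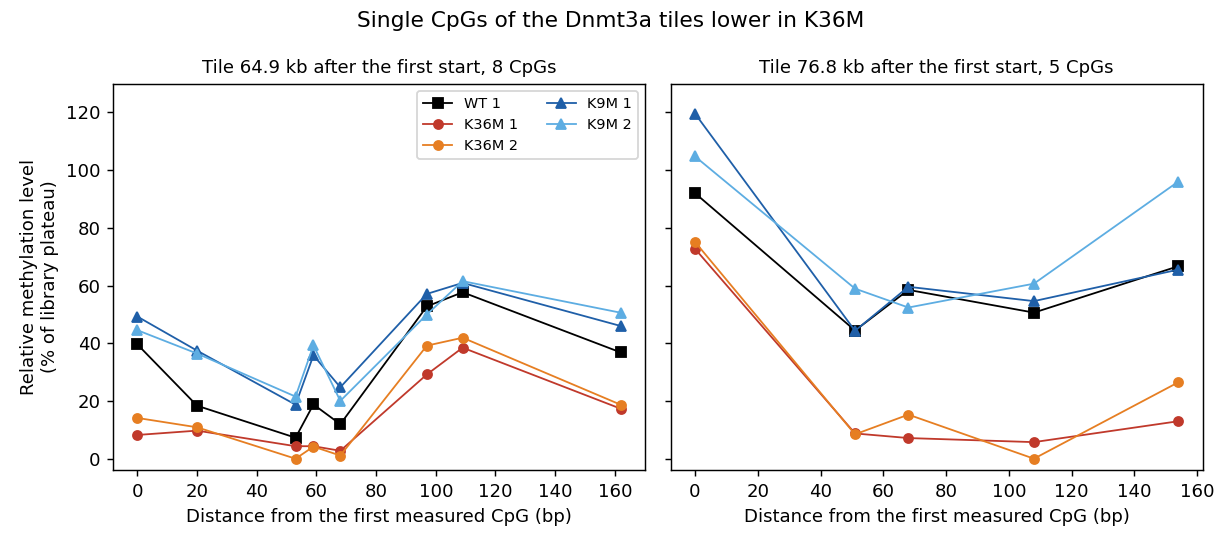
Relative level (percent of the library plateau) of single CpGs in the 2 called Dnmt3a tiles against the distance in bp from the tile's first measured CpG. Lines join the CpGs of a library, and both K36M libraries lie below WT and both K9M libraries at each of the 8 and 5 CpGs.

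Fits without 1 mutant library have 1 residual degree of freedom, and over all 152678 tiles they called 2, 0, 238 and 233 lower for K36M against WT (without K36M replicates 1 and 2 and K9M replicates 1 and 2, in that order), against 726 with all libraries, so that lost calls there are not particular to these tiles. For chr12:3883001-3884000 the adjusted p of K36M against WT by the tile model (limma) was 0.360 without K36M replicate 1, 0.387 without K36M replicate 2, 0.0868 without K9M replicate 1 and 0.0890 without K9M replicate 2, at differences of -38.5 to -42.6 points. For chr12:3871001-3872000 it was 0.522, 0.478, 0.132 and 0.136 in that order, at differences of -13.2 to -15.6 points, and it was 0.0647 at a minimum second count of 5 and 0.0592 when the top 40% of tiles set the plateau.

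Against K9M, the call at 3883001 was lost without either K36M replicate (adjusted p 0.108 and 0.114 by the same model) and without K9M replicate 2 (0.0541), and the call at 3871001 without either K36M replicate (0.0786 and 0.0832). Both tiles kept both calls with edgeR. Neither was called with limma on relative levels (adjusted p 0.273 to 0.600 by limma) or with levels as deposited (0.630 to 1 by the tile model (limma)), settings that called 0 of all tiles.

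Lower levels in K36M were not found in every tile of intermediate level. Of the tested tiles 4 had a mean K9M level of 20% to 80%, a class set without K36M or WT. The called tiles were 2 of these 4, against 2.98% of 17736 such tiles called lower in K36M than in WT, and in 32.8% of such tiles both K36M libraries were below the other 3, as in these 2. The third was the last tested Dnmt3a tile, chr12:3917001-3918000, at 63.8% in WT, 60.3% and 67.1% for K36M, and 64.1% and 80.05% for K9M. There the K36M libraries lay on both sides of WT. The fourth was at the far end of the Dnmt1 window, chr9:20706001-20707000, at 33.8% in WT, 37.1% and 24.0% for K36M, and 32.3% and 18.8% for K9M, where the replicates of both mutants differed by more than the groups did.

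The stretch of Dnmt3a between the 2 upstream starts and the internal start held 11 tiles with 32 members. Pooled, it stood at 67.9% in WT, 49.2% and 49.2% for K36M, and 68.6% and 71.1% for K9M. K36M was 18.7 points below WT (difference -18.7) and 20.6 points below K9M (difference -20.6; exact two-sided permutation p = 0.3333, the smallest that 2 libraries against 2 allow). The K36M replicates had an SD of 0.0264 points (n = 2) and did not overlap WT or K9M. Both called tiles, picked out by their low K36M level, are part of this sum. The gap and the lack of overlap are therefore not separate evidence, and the stretch was not pooled without them. In 4 of its 11 tiles, the called ones among them, both K36M libraries were below WT and both K9M libraries. Among the tiles too small to test, the CpG at 3842990 was at 90.7% in WT, 61.7% and 51.6% for K36M, and 80.1% and 96.4% for K9M. The pair of CpGs in chr12:3857001-3858000 was at 70.5% in WT, 43.9% and 46.6% for K36M, and 63.9% and 82.8% for K9M. In both of these the K36M libraries were the lowest, on 16 to 44 second counts per CpG. The other 3 small tiles of the stretch did not show that order. The CpG in chr12:3867001-3868000 had both K36M libraries highest, at 123% and 103%, beside 91.1% in WT and 93.3% and 97.7% in K9M. The CpG in chr12:3866001-3867000 was at 92.8% in WT, 115% and 94.4% for K36M, and 93.6% and 97.5% for K9M. The pair of CpGs in chr12:3815001-3816000 was at 76.4% in WT, 64.0% and 79.4% for K36M, and 82.8% and 87.8% for K9M. Among tested tiles of the stretch the order also varied. In chr12:3843001-3844000, K36M replicate 2 alone was low, with 96.7% in WT, 101% and 63.7% for K36M, and 80.6% and 92.1% for K9M. The tile chr12:3865001-3866000 was at 101% in WT, 133% and 98.5% for K36M, and 113% and 102% for K9M.

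After the internal start, 15 Dnmt3a tiles with 56 members stood at 89.4% in WT, 82.6% and 84.2% for K36M, and 86.8% and 96.6% for K9M. K36M was lower than WT by 6.01 points (difference -6.01), and the K9M libraries lay on both sides of WT. In 7 of these 15 tiles, and at 25 of the 56 CpGs, both K36M libraries were below WT and both K9M libraries, beside 10.8% of all autosomal CpGs. Tested tiles there ran from -19.2 points (K36M minus WT) at chr12:3905001-3906000 to 3.66 points at chr12:3896001-3897000. The 10-CpG tile chr12:3907001-3908000 was at -15.0 points. No tile there was called. The last CpG of the window, in chr12:3918001-3919000 and too few to test, was at 12.3% in WT, 10.3% and 9.69% for K36M, and 28.2% and 33.8% for K9M, so that here the K9M libraries stood apart. Of all 20 tested Dnmt3a tiles, 8 had both K36M libraries below the other 3, against 20.6% of all tiles. In Dnmt3b, Dnmt1 and Tet2 the count was 3 of 6, 2 of 15 and 2 of 7.

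Outside the unmethylated tiles, the 88 Dnmt3a members pooled to 81.6% in WT, 70.3% and 71.6% for K36M, and 80.5% and 88.4% for K9M. K36M was at 70.9% ± 0.901 (SD, n = 2), a difference of -10.7 points from WT and of -13.5 points from K9M (exact two-sided permutation p = 0.3333). Without the 2 called tiles the 75 remaining CpGs stood at 90.5% in WT, 85.03% ± 1.27 (SD, n = 2) in the K36M pair and 92.2% ± 6.17 (SD, n = 2) in K9M. The difference of K36M from WT was then -5.42 points.

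**Figure D3:**
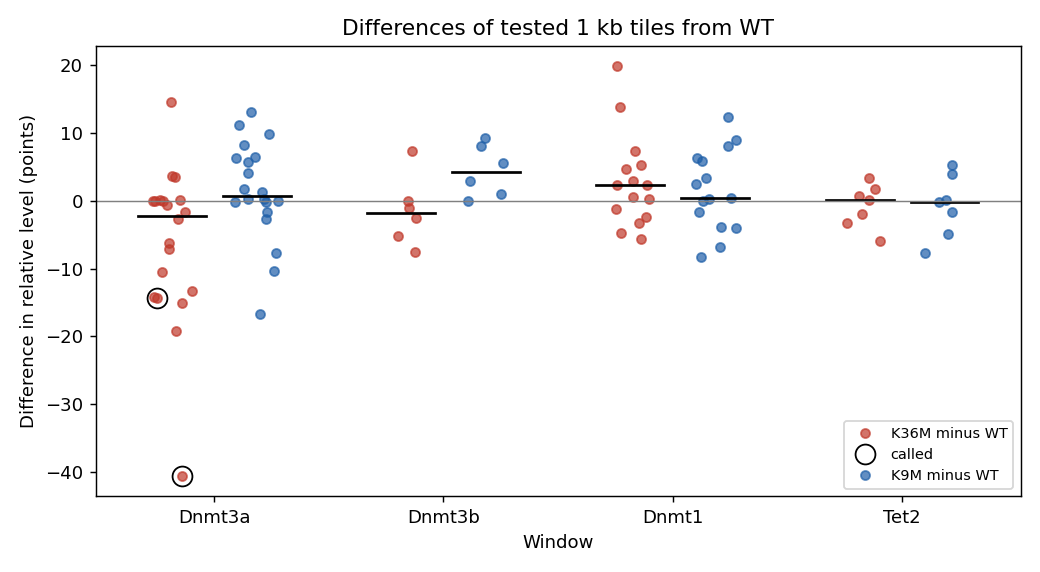
Difference in relative level from WT (points) of each tested 1 kb tile in the 4 windows, K36M in red and K9M in blue, with the median as a black bar and called tiles ringed. The 2 called tiles, at -40.5 and -14.4 points, are both in Dnmt3a and K36M, and an uncalled Dnmt3a tile at -14.1 points partly overlies the upper ring.

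In Dnmt3b, whose product is the second de novo enzyme, 22 members outside the unmethylated tiles pooled to 89.5% in WT, 88.5% and 84.1% for K36M, and 90.3% and 98.4% for K9M. K36M differed from WT by -3.19 points, about its own spread of 3.15 (SD, n = 2). The tested tile with the largest difference was chr2:153502001-153503000, with 5 CpGs, 27.4 kb after the start. It was at 83.4% in WT, 75.75% and 75.8% for K36M, and 83.2% and 99.6% for K9M. K36M was -7.59 points from WT (adjusted p of 1 by the tile model (limma)) and -15.6 points from K9M (adjusted p 0.647), where K9M replicate 2 alone was high. For K9M against WT the largest difference was 9.25 points at chr2:153504001-153505000, with WT at 88.1% and K9M at 97.1% and 97.6%.

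Dnmt1, the maintenance enzyme, was highly methylated in most tiles on both sides of its start. The tile chr9:20706001-20707000, at the far end of the window, was at 33.8% in WT. Its 91 members outside the unmethylated tiles pooled to 92.2% in WT, 94.3% and 95.2% for K36M, and 90.7% and 97.1% for K9M. K36M was here 2.56 points above WT, more than its spread of 0.648 (SD, n = 2), while the K9M replicates lay on both sides of it. The tile of largest difference from WT, chr9:20734001-20735000 with 3 CpGs, was at 99.0% in WT, 108% and 130% for K36M, and 104% and 99.3% for K9M, a difference of 19.8 points with adjusted p = 1 by the tile model (limma). Against K9M it was chr9:20713001-20714000 with 12 CpGs, at 117% and 109% in K36M, 81.9% and 103% in K9M and 99.1% in WT, a difference of 20.7 points at adjusted p = 0.525 by the same model. K9M differed most from WT at chr9:20725001-20726000, by 12.3 points, with WT at 91.6% and K9M at 108% and 99.7%.

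Tet2, the oxidising enzyme, had the smallest differences of the 4 windows in all 3 comparisons of CpGs outside the unmethylated tiles. Its 32 members outside the start tile pooled to 98.0% in WT, 96.6% and 97.6% for K36M, and 93.2% and 99.96% for K9M. K36M differed from WT by -0.915 points against a spread of 0.704 (SD, n = 2). The tile of largest difference between K36M and WT, chr3:133131001-133132000, was at 97.4% in WT and 88.9% and 94.2% in K36M, and K9M was at 94.8% and 99.7%. Against K9M the largest was -8.63 points at chr3:133196001-133197000, at 86.4% and 90.8% for K36M, and 97.4% and 97.1% for K9M. For K9M against WT it was -7.76 points at chr3:133115001-133116000, with WT at 105% and K9M at 93.4% and 101%. Each of these had an adjusted p of 1 by the tile model (limma).

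**Figure D4:**
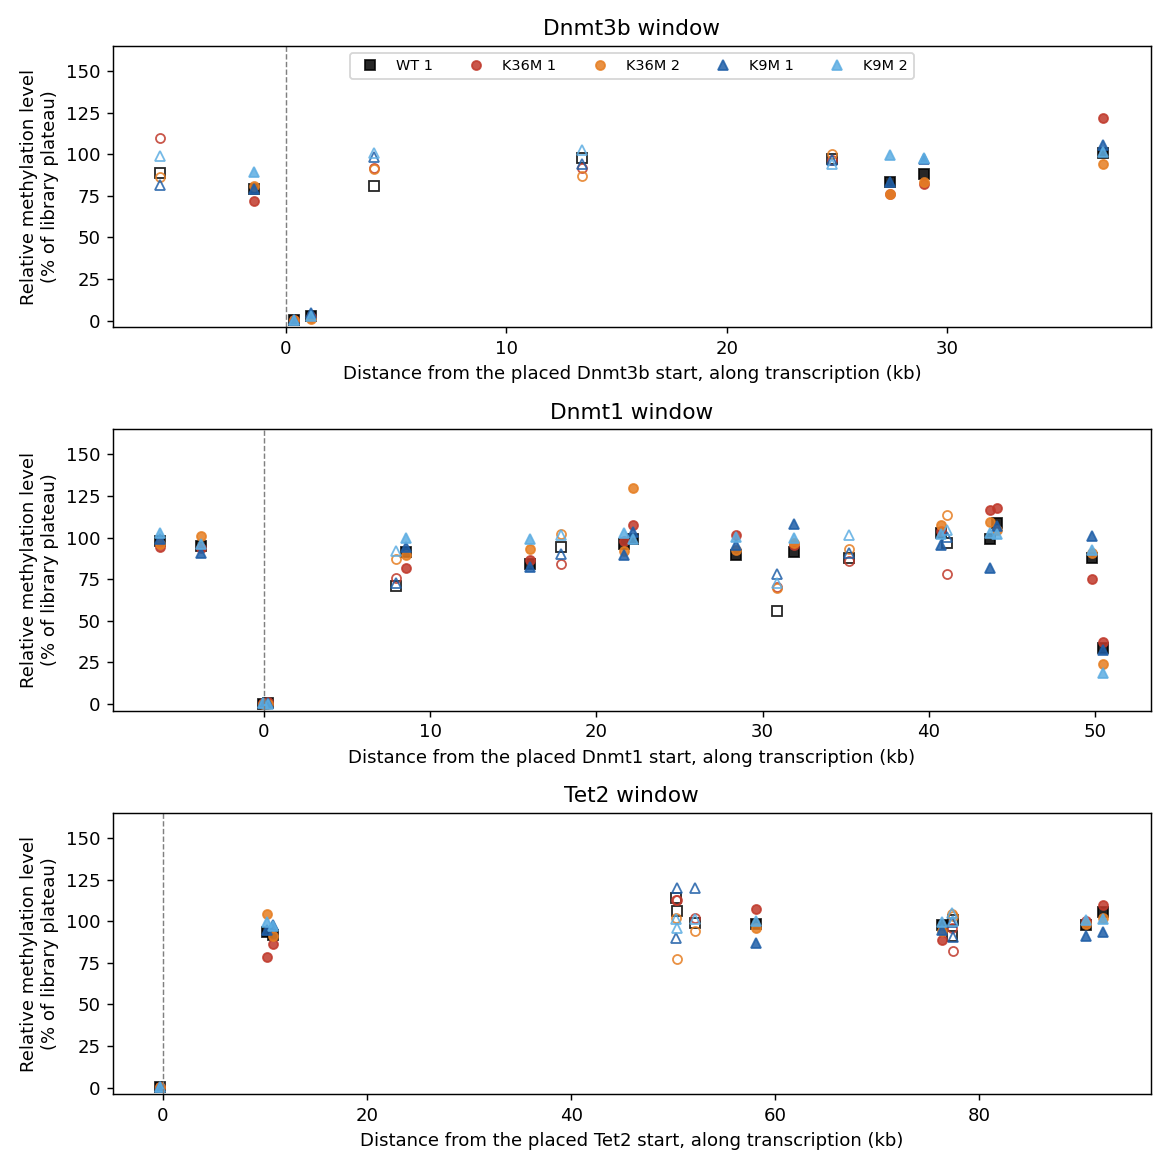
Relative level (percent of the library plateau) of each 1 kb tile in the Dnmt3b, Dnmt1 and Tet2 windows against the distance in kb from the placed start (dashed line), counted along transcription, for the 5 libraries, with open symbols for tiles under 3 CpGs. Levels are under 5% next to each start and near 100% in most other tiles, with no tile called.

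The comparison of K9M with WT asks the same of the lysine 9 mutant. Of the 48 tiles 0 were called in either direction by the tile model (limma), against 0.0275% of all tiles called lower and 0.0504% called higher, and 2 had an unadjusted p under 0.05. edgeR called 0 of the 48 tiles as well, with 135 of all tiles lower and 231 higher, and limma on relative levels called 0 of all tiles. The largest difference was in Dnmt3a, -16.6 points at chr12:3849001-3850000, a tile of 3 CpGs above the plateau, at 120% in WT, 106% and 101% in K9M and 121% and 107% in K36M.

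Over whole windows, the unmethylated starts included, Dnmt3a stood at 18.1% in WT, 17.3% and 16.3% for K36M, and 18.6% and 19.0% for K9M, so that both K36M libraries lay below the other 3 (K36M minus WT -1.26 points, K9M minus WT 0.693 points). Dnmt3b stood at 11.7% in WT, 10.9% and 11.8% for K36M, and 11.5% and 10.5% for K9M, with overlapping groups. Dnmt1 was at 51.3% in WT, 49.04% and 50.6% for K36M, and 51.8% and 53.2% for K9M, the same order. Its difference of K36M from WT was -1.50 points, but 3.34 points as a mean of CpG levels and 2.56 points outside the unmethylated tiles. Tet2 was at 21.2% in WT, 20.4% and 20.9% for K36M, and 19.2% and 20.6% for K9M. The exact two-sided permutation p of K36M against K9M was 0.3333 in Dnmt3a and Dnmt1 and 0.667 in Dnmt3b and Tet2. The median difference of the 48 tiles was -0.358 points for K36M against WT and 0.708 for K9M against WT, beside -0.483 and 0.319 over all tiles.

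Of 22 other genes of the DNA methylation pathway, among them Tet1, Tet3, Uhrf1 and Tdg, 15 had a promoter that could be placed in the same way, and 14 had a start in a tested tile. All of these 16 start tiles were under 5% in every library, with a highest value of 3.60%, so that none could reach the 10 points of a call. The gene bodies of these genes were not examined. In Tet3, a sister enzyme of TET2, the start tile had an adjusted p of 0.0116 for K36M against K9M by the tile model (limma), at a difference of -1.93 points, which is below the 10 points of a call and was picked out after its value was seen.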

How the data were processed

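DNA methylation was measured in 5 libraries (1 WT, 2 K36M, 2 K9M, grouped by title). Per the labels' protocols, DNA was cut with MspI and bisulfite-converted. BSMAP, cutadapt and mm9 are named in the submitters' processing notes; versions, settings and deduplication are not given in the sources used here. For each CpG the authors deposited a level, a fraction from 0 to 1, and a total, a count. The methylated count is level times total, rounded, and was whole within 0.01 for 100.0% of CpGs in 4 libraries and 89.2% in K9M replicate 2. Plateaus were 1.23 (WT), 1.22 and 1.26 (K36M), 1.37 and 0.954 (K9M). The tile model is a logistic (quasi-binomial) model that used the log plateau as an offset, Pearson dispersion (2 residual degrees of freedom) squeezed on a trend in log mean count by limma 3.58.1 in R 4.3.3 and held at or above 1, and an F test of the deviance. The moderated dispersion was above 1 in 22.0% of tiles, and in the others the test rests on counting error alone. WT, with 1 library, takes any spread beyond counting error from the mutants. Dispersion from the deviance was added after seeing the data, and edgeR 4.0.16 and limma on levels were alternatives. The model was tested on simulated data. Intervals cover counting error only, and they take the counts of a tile's CpGs as independent, which by itself makes them too narrow. They also take the methylated and second counts as exclusive, and their true width was not tested. Members, windows and lists were chosen with earlier results of these data known. Tiles named are those called, the CpG-richest of each window and the one of largest difference per window and comparison; other tiles and CpGs named, and the split at 5%, were chosen after their values were seen. Placing promoters of genes outside the 4 loci was also added then.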

Additional observations from a re-analysis of the deposited data

How the results depend on the processing

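The number of called tiles in the 4 windows for K36M against WT, 2 as reported, was 1 at a minimum second count of 5, 1 when the top 40% of tiles set the plateau, and 0 with limma on relative levels, with levels as deposited and with the replicate number as a block; without 1 mutant library it was 0 to 0, where 0 to 238 of all tiles were called lower. It was 2 at a minimum of 20, with edgeR and with dispersion from the deviance. For K36M against K9M, also 2, it was 0 with limma, with levels as deposited and with the replicate block, and 0 to 2 without 1 library, where 67 to 1877 of all tiles were called lower. The settings that use limma on levels, levels as deposited or the block called 0 of 152678 tiles in all 3 comparisons, so their 0 in the windows says nothing about the members. Fits without 1 mutant library, or with the block, have 1 residual degree of freedom. The difference of both called tiles kept its sign under every alternative in both comparisons. Replicate numbers share no stated origin: the differences between replicates 1 and 2 of K36M and K9M had a Pearson r of 0.0773 across 152678 tiles, which are not independent replicates, so the block rests on a shared number only. For K9M against WT the count in the windows was 0 also with edgeR, a minimum of 5 or 20, the top 40% plateau and dispersion from the deviance, where 20 to 135 of all tiles were called lower and 48 to 231 higher. Over all tiles, the 726 lower and 22 higher for K36M against WT were 1554 and 66 with edgeR, 511 and 10 at a minimum of 5, and 0 and 0 with limma.

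With levels as deposited, where K9M replicate 2 is on another scale, the sign turned at Dnmt3a from 3849001 (K9M against WT, 17.96 points), Tet2 from 133115001 (K9M against WT, 20.01 points) and Dnmt1 from 20713001 (K36M against K9M, -17.2 points); none was called.
Window levels as the mean of CpG levels instead of pooled counts moved K36M against WT to -2.37 points in Dnmt3a and 3.34 in Dnmt1, K9M against WT to 0.978 in Dnmt3a, 1.02 in Dnmt3b and -0.142 in Tet2, and K36M against K9M to -3.35 in Dnmt3a, -1.40 in Dnmt3b and 1.77 in Dnmt1. With levels as deposited, K9M against WT was 0.969 in Dnmt3a and 7.41 in Dnmt1, and K36M against K9M -8.06 in Dnmt1. The cause of these shifts was not tested. Precision is limited by the single WT library, the 2 residual degrees of freedom and the 24 of 72 tiles with under 3 members, which were not tested.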
